A study of Mus musculus with 9 samples.

Results

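The protocadherin genes of the mouse were followed with and without Bmi1 in satellite cells, which are the resident muscle stem cells. Members were all non-control array probes whose gene name begins with Pcdh. These were 61 probes, and the brightest probe of each gene stood for it, which gave 47 genes of 36373 genes and other named features on the array. They comprise 7 genes of the Pcdha cluster, 22 of the Pcdhb cluster, 6 of the Pcdhg cluster and 12 non-clustered genes. Of the 47 genes, 37 lie on chromosome 18, among them the 35 clustered genes, Pcdh1 and Pcdh12. A further 4 lie on chromosome 14, 2 on chromosome 3, 2 on chromosome X, 1 on chromosome 5 and 1 on chromosome 10.

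Protocadherins are cadherin-related adhesion proteins of the cell surface. In the Pcdha and Pcdhg clusters, each gene is a large variable exon with its own promoter, spliced to constant exons that all genes of the cluster share, whereas Pcdhb genes consist of a single exon. Individual neurons use different combinations of clustered genes, and CTCF, cohesin, DNA methylation and SMCHD1 control which promoters are active. The non-clustered genes are scattered, and several of their proteins link cell contacts to the actin-regulating WAVE complex. BMI1, a subunit of Polycomb repressive complex 1, helps to keep developmental genes and Cdkn2a silent.

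Satellite cells had been sorted from skeletal muscle of Bmi1-deficient mice (KO) and of wild type mice (WT), both on the FVB background, labelled male and 2 months of age. The sort kept cells with integrin alpha-7 and CD34 on the surface and removed cells with CD31, CD45, CD11b or Sca1. There were 6 KO arrays and 3 WT arrays of 1 colour. Pairs of KO arrays with the same leading number in the description were nearly identical (r of 0.9944 to 0.9956 over probes, against 0.9622 to 0.9786 for the other 33 pairs of arrays) and were averaged, which left 3 KO and 3 WT samples. KO sample 1 joins replicates 1 and 4, sample 2 joins 2 and 5, and sample 3 joins 3 and 6. Nothing in the labels ties the samples to different animals, although they are termed biological replicates. The p-values therefore cover sample-to-sample spread alone, part of which may be technical. They give no detail of the Bmi1 allele.

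A level below is the log2 signal of a probe relative to the 75th percentile of its array, and a difference is the KO mean minus the WT mean of such levels. Between 71.9% and 75.8% of spots per array were well above background and 0 were saturated. Precision is limited by how few arrays there are. The Bmi1 probe stood at 0.58, 0.71 and 0.48 in KO samples and at 0.40, 0.61 and 0.48 in WT samples. The labels do not give the deleted part of the gene, so this probe does not check them. Cdkn2a stood at -0.92, -0.57 and -0.82 in KO samples and at -4.28, -4.23 and -3.64 in WT samples (difference 3.28, limma adjusted p = 0.0156). That adjusted p was 0.0695 with slide as a block and 0.0622 to 0.0893 with any sample left out, where the difference stayed between 3.17 and 3.48. KO replicate 1, whose genotype field reads wild type against its other labels, correlated at 0.9953 with KO replicate 4 and at 0.9622 to 0.9701 with the WT arrays. Arrays lay on 2 slides, one with 3 KO and 2 WT arrays and the other with 3 KO arrays and 1 WT array. Each KO sample averaged 1 array from each slide. WT samples 1 and 3 lay on the slide with 2 WT arrays and WT sample 2 on the other. The fit with slide as a block took the mean slide number of each sample. Its slide term thus rests on WT sample 2 against WT samples 1 and 3, and cannot be told apart from what is particular to WT sample 2. Itga7, the integrin used in the sort, stood at 2.12, 2.37 and 2.33 in KO samples and at 2.35, 2.35 and 2.16 in WT samples.

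Sequences are shown for Pcdh19 and Pcdh17, the tested genes outside the clusters whose KO and WT samples did not overlap, and for Pcdh18, whose samples overlapped. They are the 250 bases before the annotated start in RefSeq, read 5′ to 3′ on the strand of the gene, with every CG in capitals. CG density is shown because CG-rich promoters are a common site of Polycomb binding in mammals.
Pcdh19 promoter (GRCm38.p6, chrX:133688994-133689243, minus strand): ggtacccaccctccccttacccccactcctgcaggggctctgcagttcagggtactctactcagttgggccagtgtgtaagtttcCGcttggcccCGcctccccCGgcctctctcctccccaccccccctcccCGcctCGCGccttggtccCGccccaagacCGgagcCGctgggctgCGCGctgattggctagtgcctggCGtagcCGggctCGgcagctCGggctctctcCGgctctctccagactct
Pcdh17 promoter (GRCm38.p6, chr14:84443313-84443562, plus strand): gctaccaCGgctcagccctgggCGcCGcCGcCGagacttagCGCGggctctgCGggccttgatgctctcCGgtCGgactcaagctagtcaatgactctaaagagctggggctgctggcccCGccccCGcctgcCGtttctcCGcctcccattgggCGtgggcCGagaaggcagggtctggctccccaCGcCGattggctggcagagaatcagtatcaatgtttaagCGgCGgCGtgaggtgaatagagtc
Pcdh18 promoter (GRCm38.p6, chr3:49757317-49757566, minus strand): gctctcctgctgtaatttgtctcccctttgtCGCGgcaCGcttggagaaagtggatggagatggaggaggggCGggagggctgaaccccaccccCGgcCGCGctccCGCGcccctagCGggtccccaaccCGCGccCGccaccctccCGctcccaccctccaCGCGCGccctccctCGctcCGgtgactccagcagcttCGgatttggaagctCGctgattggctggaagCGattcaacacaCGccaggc
Pcdh18 held 23 CG, Pcdh17 held 21 and Pcdh19 held 16 in this window, where the median of 32851 promoters was 6. As many CG as in Pcdh18 were found in 13.3% of all promoters, as many as in Pcdh17 in 16.3% and as many as in Pcdh19 in 25.4%. CG reads the same on both strands. Of the other non-clustered genes with an entry, Pcdh10 held 22, Pcdh9 held 18, Pcdh8 held 11, Pcdh7 held 7, Pcdh15 held 6 and Pcdh20 held 3. Pcdh1, Pcdh11x and Pcdh12 had no entry.

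Of the 47 genes, 42 had a probe well above background on at least 3 of the 9 arrays, and 35 had one that passed on all 9. The 5 that did not pass were Pcdha4, Pcdha11, Pcdha12, Pcdhb13 and Pcdh8. None of the 42 genes passed the limma test at an adjusted p of 0.05, against 40 of 28360 genes and features tested (0.141%, with 0.13% higher and 0.0106% lower in KO). The lowest adjusted p among them in limma was 0.121, for Pcdhac1. At an unadjusted limma p under 0.05 there were 5 of the 42, with 11% of all genes past that threshold. Pcdhac1 and Pcdh19 were the 2 on the higher side in KO (background 6.77%) and Pcdh17, Pcdhga5 and Pcdhga10 the 3 on the lower side (background 4.22%). Because none of these passed the adjusted test, the values that follow describe these samples.

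In 6 genes the KO and WT samples did not overlap, against 16.7% of all genes. KO samples were all above WT samples in Pcdhac1, Pcdhb9 and Pcdh19 (background 8.61%) and all below them in Pcdhga5, Pcdhga10 and Pcdh17 (background 8.09%). The KO mean was the higher one in 28 of the 42 genes, against 47.2% of all genes, whose median difference was -0.02. In sorted cells measured in bulk, fewer cells of a type and less RNA per cell cannot be told apart.

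**Figure D1:**
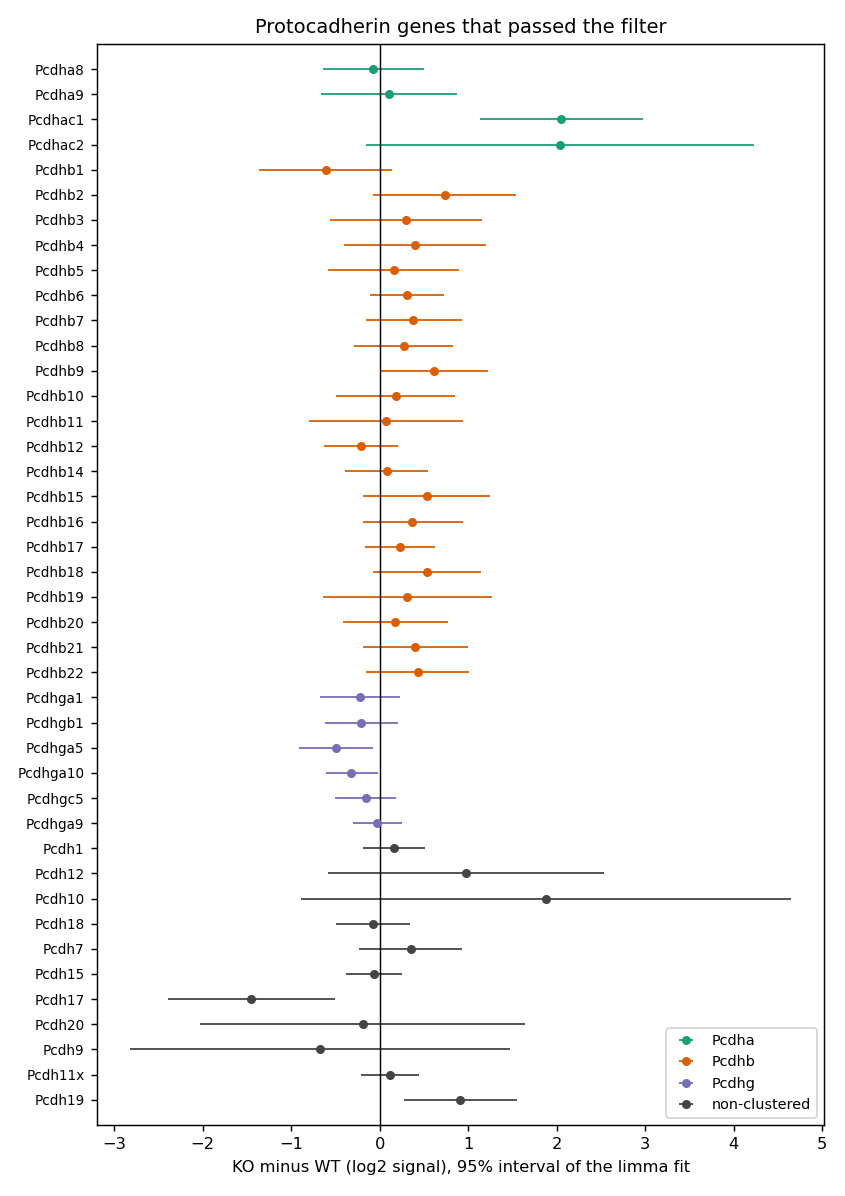
Difference in log2 signal, KO mean minus WT mean, of the 42 protocadherin genes that passed the filter (x axis), with lines for the 95% interval of the limma fit over 3 KO and 3 WT samples and colours for the 4 groups of genes. Most Pcdhb points lie to the right of 0, the 6 Pcdhg points lie between -0.49 and -0.03, and the non-clustered genes spread from -1.45 to 1.88.

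The Pcdhb genes encode adhesion proteins that lack the shared cytoplasmic end of the other clusters. Of the 21 that passed the filter, 19 had a higher mean in KO samples (18 under quantile normalization) and 2 a lower one (Pcdhb1 and Pcdhb12, the second named after its value was seen). The differences ran from -0.61 to 0.74 with a median of 0.31. The median of these genes, each set against its own WT mean, was 0.39, 0.40 and 0.17 in the KO samples and -0.02, 0.13 and -0.17 in the WT samples. The lowest KO sample, sample 3, was thus 0.17 against 0.13 in the highest WT sample, sample 2, a narrow gap.

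No Pcdhb gene differed by itself beyond the spread of its samples in the limma fit, where adjusted p ran from 0.456 to 0.97. The 95% intervals reached a median of 0.61 to either side of the difference, which is more than the median difference itself. The median SD between samples was 0.39 among KO and 0.28 among WT samples, while the arrays averaged into 1 KO sample differed with an SD of 0.08. Within the slide with 2 WT arrays the median difference was 0.35, with 19 of 21 genes higher in KO. On the other slide, with its 1 WT array, the median was 0.15, with 15 of 21 higher. Without WT sample 3 the median was 0.17, with 16 of 21 higher.

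Pcdhb9 was at -2.13, -2.83 and -2.79 in KO samples and at -3.27, -3.43 and -2.87 in WT samples. It was the Pcdhb gene whose groups did not overlap, with KO sample 3 and WT sample 3 only a small step apart, and its difference was 0.61 (SE 0.25, limma adjusted p = 0.456). Pcdhb2 had the largest difference of the cluster, 0.74 (SE 0.33, limma adjusted p = 0.496). It was at -2.44, -1.66 and -2.44 in KO samples and at -2.34, -3.19 and -3.20 in WT samples, so WT sample 1 was above 2 of the KO samples. Pcdhb18 was at -4.40, -3.74 and -3.62 in KO samples and at -4.68, -4.50 and -4.21 in WT samples (difference 0.54, SE 0.25). Its KO sample 1 lay within the WT range.

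Pcdhb1, the first gene of the cluster, was at -6.57, -5.98 and -5.39 in KO samples and at -5.44, -5.49 and -5.17 in WT samples. Its difference was -0.61 (SE 0.31), the lowest of the cluster, and its probe was well above background on 3 of 6 KO arrays and 3 of 3 WT arrays. With background modelled by normexp the Pcdhb1 difference was -0.19. Pcdhb13 was above background on 0 of 9 arrays and was not tested. Pcdhb genes are similar in sequence, and hybridisation of one gene's cDNA to another gene's probe was not tested.

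**Figure D2:**
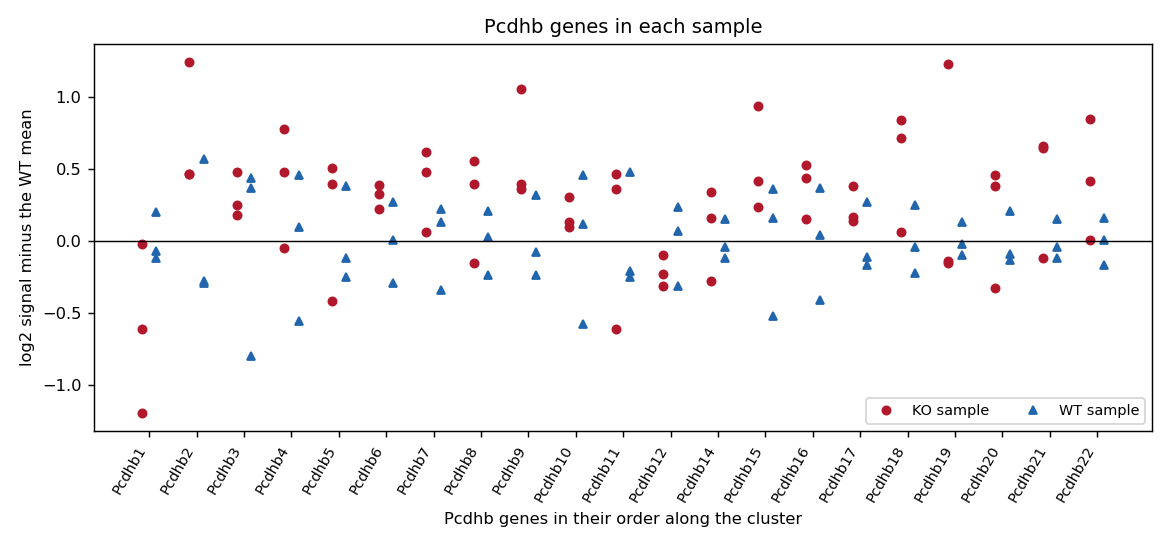
Log2 signal of each Pcdhb gene in each sample, minus the mean of its WT samples (y axis), for 21 genes in their order along the cluster, with red circles for the 3 KO samples and blue triangles for the 3 WT samples. KO circles lie mostly above 0, but they overlap the WT triangles in every gene except Pcdhb9.

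The Pcdhb differences followed neither position nor brightness closely. Across the 21 genes, Pearson's r with the order along the cluster was 0.19 (Spearman's rho 0.15), and with the mean signal it was 0.30 (rho 0.09). These points share the same 6 samples and are a description only. No KO sample led throughout. KO sample 1 was the highest KO sample in 10 of the 21 genes and the lowest in 8, and KO sample 3 was the lowest in 10. Among WT samples, sample 2 was the highest in 10 genes and sample 3 the lowest in 12.

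All 6 Pcdhg genes had a lower mean in KO samples (5 under quantile normalization), against 52.8% of all genes. Their differences ran from -0.49 to -0.03 with a median of -0.22. The median over the genes, each against its own WT mean, was -0.22, -0.29 and -0.18 in KO samples and 0.15, 0.01 and -0.07 in WT samples. Every KO sample lay below every WT sample in this median, although no Pcdhg gene passed the adjusted test. The median was -0.16 within the slide with 2 WT arrays, where 5 of 6 genes were lower, and -0.25 on the other slide, where 6 were lower.

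Pcdhga5, a variable exon of the A type, was at -1.79, -1.72 and -1.39 in KO samples and at -0.98, -1.08 and -1.36 in WT samples. The groups were separate, with KO sample 3 and WT sample 3 nearly touching, and the difference was -0.49 (SE 0.17, limma adjusted p = 0.373). Pcdhga10, of the same type, was at -0.43, -0.43 and -0.52 in KO samples and at -0.01, -0.26 and -0.17 in WT samples. Its KO samples varied little (SD 0.05) and lay below all WT samples, with a difference of -0.32 (SE 0.12, limma adjusted p = 0.421).

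Pcdhga1 had 0.86, 0.52 and 0.35 in KO samples, against 1.01, 0.77 and 0.62 in WT samples. Its groups overlapped, with a difference of -0.22 (SE 0.19). Pcdhgb1, of the B type, had -0.55, -0.58 and -0.08 in KO samples, against -0.24, -0.12 and -0.22 in WT samples (difference -0.21, SE 0.17). KO sample 3 was above every WT sample there. A separate probe that its description assigns to the gamma B subfamily, outside the naming rule, had a difference of -0.27.

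The probes named Pcdhga9 lay 20.5 and 22.1 kb downstream of the Pcdhgc5 probe, past every other Pcdhg probe, and 91.9 kb past the probe of Pcdhga10. The shared constant exons of the cluster lie downstream of its variable exons, but the exon that these probes match was not looked up here. The brighter one was at 5.28, 5.31 and 5.16 in KO samples and at 5.23, 5.34 and 5.27 in WT samples. These are close together, with a difference of -0.03 (SE 0.11, 95% interval from -0.30 to 0.25), and the other probe gave -0.07. This difference turned positive, 0.04, under quantile normalization. The 5 Pcdhg genes other than Pcdhga9 had differences from -0.49 to -0.16, with a median of -0.22.

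Only 4 of the 7 Pcdha genes passed the filter, with a higher KO mean in 3 and a lower one in 1. The C-type genes Pcdhac1 and Pcdhac2, whose variable exons are the last of the cluster, had differences of 2.05 and 2.04, while Pcdha8 and Pcdha9 had -0.07 and 0.11. The median of the 4 was 1.07, and it depended on how dim signal was handled. It was 0.31 with normexp and 0.02 over Pcdha8 and Pcdha9, the 2 genes measured above background on each of the 9 arrays.

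Pcdhac1 was at -3.80, -5.14 and -3.94 in KO samples and at -6.43, -6.07 and -6.55 in WT samples. Its probe was well above background on 6 of 6 KO arrays and 0 of 3 WT arrays, so the WT level was not resolved from background. The KO mean was -4.30 and the WT mean -6.35, and the KO mean was 3.54-fold above a floor set for the WT level. That floor was the dimmest signal well above background on each WT array, or the probe's own signal where that was higher. It is not a detection limit of this probe, so 3.54 is not a lower limit of the fold. Pcdhac1 passed the filter through its KO arrays alone, so the measured difference of 2.05 and its limma adjusted p of 0.121 set KO signal against WT signal at background, and its place among the counts above supports nothing. The measured difference was 1.96 within the slide with 2 WT arrays and 2.01 on the other, but 0.57 with normexp. A second probe 272 bases away, described as alpha C1 but not named so, was above background on 0 of 9 arrays, with a difference of 0.00.

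Pcdhac2 was at -4.81, -3.42 and -4.22 in KO samples and at -8.03, -6.03 and -4.51 in WT samples. WT sample 3 lay within the KO range and the WT samples spread widely, so the difference of 2.04 (SE 0.90) had a limma adjusted p of 0.487. With normexp it was 0.58, and without WT sample 1 it was 1.12. The probe was well above background on 6 of 6 KO and 2 of 3 WT arrays. It too would fail the filter on WT arrays alone, so its place among the higher genes supports nothing. The other Pcdhac2 probe, 41.5 kb away, was above background on 0 of 9 arrays.

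Pcdha8 was at -1.79, -1.83 and -1.13 in KO samples and at -1.28, -1.58 and -1.68 in WT samples, fully overlapping, and its second probe gave 0.27. Pcdha9 was at -3.62, -4.67 and -4.29 in KO samples and at -4.31, -3.96 and -4.64 in WT samples, also overlapping. Of the Pcdha genes that did not pass, Pcdha4 was above background on 2 of 6 KO and 0 of 3 WT arrays and Pcdha11 on 1 of 6 KO and 0 of 3 WT arrays. Pcdha12 was above background on 0 of 6 KO and 1 of 3 WT arrays.

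**Figure D3:**
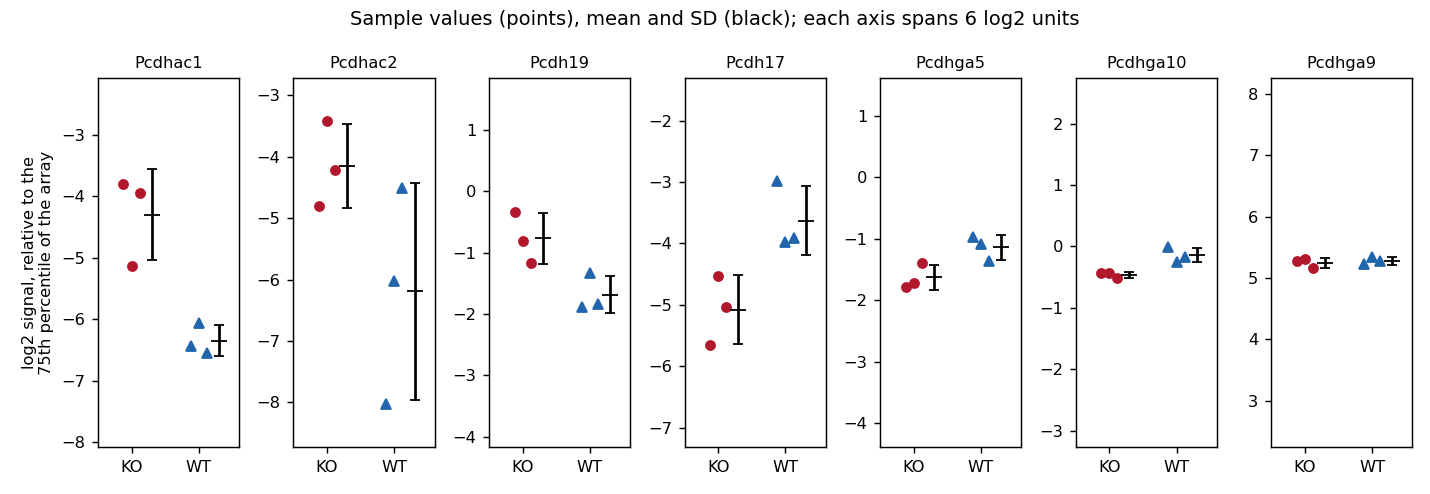
Log2 signal relative to the 75th percentile of the array (y axis, 6 log2 units in every panel) of 7 genes in 3 KO samples (red circles) and 3 WT samples (blue triangles), with the mean and SD in black. KO points lie above the WT points in Pcdhac1 and Pcdh19 and below them in Pcdh17, Pcdhga5 and Pcdhga10, while Pcdhga9 is nearly level.

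Of the 12 non-clustered genes, 11 passed the filter, with a higher KO mean in 6 and a lower one in 5. Pcdh10 was well above background on 4 of 6 KO and 1 of 3 WT arrays, and Pcdh12 on 6 and 1. Both would fail the filter on WT arrays alone. Their places among these 6, and among the 28 higher genes above, thus support nothing. The median difference of the 11 genes was 0.12, and it was 0.20 within the slide with 2 WT arrays and -0.06 on the other. Differences of the 11 ran from -1.45 to 1.88, a wider range than in the Pcdhb and Pcdhg clusters, while Pcdha genes ran from -0.07 to 2.05. Only 7 of the 11 were above background on all 9 arrays, against 20 of 21 Pcdhb and 6 of 6 Pcdhg genes. The upper end was Pcdh10, at 0.66 with normexp, whose other probe gave the opposite sign.

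**Figure D4:**
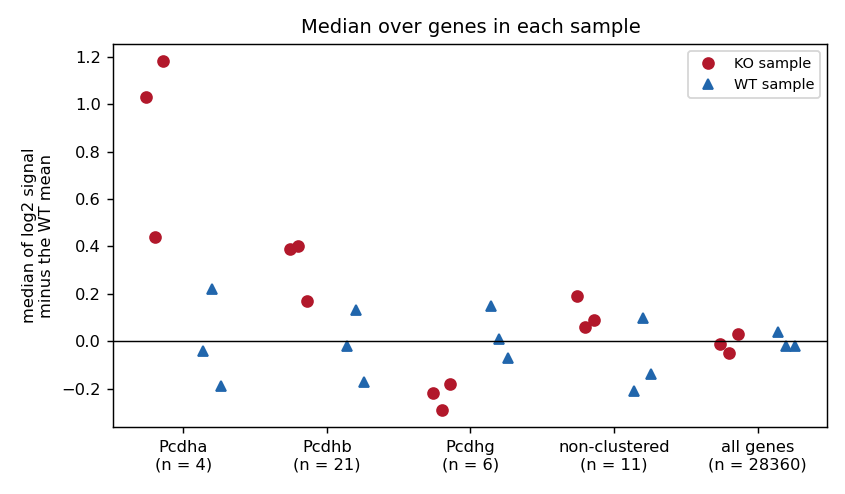
Median over genes of the log2 signal minus the WT mean of each gene (y axis) in each of 3 KO samples (red circles) and 3 WT samples (blue triangles), for 4 Pcdha, 21 Pcdhb, 6 Pcdhg and 11 non-clustered genes and all 28360 genes and features. KO samples lie between 0.17 and 0.40 for Pcdhb and between -0.29 and -0.18 for Pcdhg, and near 0 for all genes.

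Pcdh19, an adhesion protein encoded on chromosome X that acts with N-cadherin and binds the WAVE complex, was at -0.34, -0.81 and -1.17 in KO samples. In WT samples it was at -1.88, -1.34 and -1.83. All KO samples were above all WT samples, with WT sample 2 the nearest, and the probe was well above background on all 9 arrays. The difference was 0.91 (SE 0.26, 95% interval from 0.28 to 1.55), a ratio of 1.88, with a limma adjusted p of 0.274. It was 1.04 and 0.61 within the slides and 0.80 with normexp. The probe lies at mm9 chrX:130122356-130122415.

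Pcdh17, another WAVE-binding member, was at -5.65, -4.53 and -5.04 in KO samples and at -2.98, -3.98 and -3.92 in WT samples. Every KO sample was below every WT sample, and the probe, at mm9 chr14:84933861-84933920, was well above background on all 9 arrays. The difference was -1.45 (SE 0.39, 95% interval from -2.39 to -0.51), with a limma adjusted p of 0.247. It was -1.68 and -1.04 within the slides and -0.73 with normexp. Pcdh17 and Pcdhac1 passed the limma test when all 9 arrays were taken as separate samples (adjusted p of 0.0473 and 0.0316), a fit that passed 4.24% of all genes and counts repeat arrays of a KO sample as independent.

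Pcdh10, which also binds the WAVE complex, gave opposite differences at its probes. The brighter probe (mm9 chr3:45186832-45186891) was at -3.95, -2.81 and -6.83 in KO samples and at -7.24, -6.97 and -5.01 in WT samples, a difference of 1.88 (SE 1.13) with KO sample 3 far below the others. The other probe was at -6.66, -4.20 and -6.56 in KO samples and at -4.41, -6.13 and -3.14 in WT samples, a difference of -1.24. Neither was well above background on all arrays, with 4 of 6 KO and 1 of 3 WT arrays for the brighter probe and 3 of 6 KO and 2 of 3 WT arrays for the other. The sequence of the second probe is shown because the array design spreads its 60 bases over 6508 bases (mm9 chr3:45196739-45203246), so it reads a spliced transcript that the brighter probe need not read.
Pcdh10 probe over a splice junction: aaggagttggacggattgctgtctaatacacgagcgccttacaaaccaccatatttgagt

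Pcdh7, which binds protein phosphatase 1 alpha, was at 1.11, 0.96 and 0.64 in KO samples and at 0.12, 0.85 and 0.68 in WT samples. The groups overlapped, with a difference of 0.35 (SE 0.24), and its other probes gave 0.29 and 0.02. Pcdh18, bound by the adaptor Dab1, was at 1.26, 1.54 and 1.25 in KO samples and at 1.21, 1.68 and 1.38 in WT samples. Its difference of -0.07 had a 95% interval from -0.49 to 0.34. Pcdh1, an epithelial adhesion protein, was at -1.57, -1.71 and -1.52 in KO samples and at -1.61, -1.69 and -1.97 in WT samples (difference 0.16, SE 0.14). A probe described as protocadherin 1, but not named so, gave 0.63.

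Pcdh12, an adhesion protein of endothelial cells, was at -4.23, -5.64 and -4.29 in KO samples and at -6.59, -4.51 and -6.01 in WT samples. The groups overlapped through WT sample 2 and KO sample 2. Its difference of 0.98 (SE 0.64) was 1.79 within the slide with 2 WT arrays and -0.42 on the other, whose WT array is sample 2. The Pcdh12 probe was well above background on 6 of 6 KO and 1 of 3 WT arrays, and with normexp the difference was 0.20.

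Pcdh11x, encoded on chromosome X, was at -3.03, -2.84 and -2.94 in KO samples and at -2.98, -2.95 and -3.24 in WT samples (difference 0.12, SE 0.13). Pcdh15, a tip-link protein of inner-ear hair cells, was at 0.84, 0.57 and 0.82 in KO samples and at 0.76, 0.79 and 0.88 in WT samples (difference -0.06, SE 0.13). Both genes overlapped between groups. Of the 6 Pcdh15 probes, 2 passed the background call on all 9 arrays, with differences of -0.06 and -0.07, and 2 on none.

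Pcdh20 was at -5.05, -7.48 and -5.87 in KO samples and at -6.65, -4.81 and -6.37 in WT samples, and its probe was above background on 3 of 6 KO and 1 of 3 WT arrays. Pcdh9 was at -6.38, -7.65 and -4.39 in KO samples and at -6.22, -5.64 and -4.54 in WT samples, above background on 3 of 6 KO and 2 of 3 WT arrays. At these levels the samples scattered too widely for a direction, with differences of -0.19 (SE 0.75) for Pcdh20 and -0.67 (SE 0.88) for Pcdh9. Pcdh8, the paraxial protocadherin of the embryonic mesoderm, was above background on 0 of 9 arrays.

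Other genes that act with protocadherins were read from the same fit, and none passed the adjusted test. Of 23 measured regulators of the clustered locus, 8 had a higher and 15 a lower mean in KO, with a median of -0.02. At an unadjusted limma p under 0.05 there were 4 (background 11%), 1 on the higher side (background 6.77%) and 3 on the lower side (background 4.22%). Lrif1, a partner of SMCHD1, differed by 0.64 (limma adjusted p = 0.213), the corepressor Trim28 by -0.40 (limma adjusted p = 0.364) and the maintenance DNA methyltransferase Dnmt1 by -0.71 (limma adjusted p = 0.398). Without KO sample 3 the Dnmt1 difference was -0.44. The fourth was Ctcf, named after its value was seen, at 0.37, 0.38 and 0.12 in KO samples and 0.55, 0.67 and 0.67 in WT samples (difference -0.34, limma adjusted p = 0.407).

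Of 24 partners and effectors, 14 had a higher and 10 a lower mean in KO, with a median of 0.05. Cdh2 and Cdh11 are in this list and also among the cadherin-family genes below. An unadjusted limma p under 0.05 was reached by 6 of the 24, against 11% of all genes. Of these, 4 were on the higher side (background 6.77%) and 2 on the lower side (background 4.22%). The WAVE subunits Wasf3 and Wasf1 differed in opposite directions, by -0.81 (limma adjusted p = 0.148) and 0.66 (limma adjusted p = 0.308). Nhs, which carries a WAVE homology domain, differed by 0.69 (limma adjusted p = 0.159). The 6 proteases that cleave protocadherins split into 3 higher and 3 lower, with 0 past an unadjusted p of 0.05, and Psen2 at 0.31, Adam10 at 0.13 and Aph1a at -0.08.

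Of 40 other cadherin-family genes, 30 passed the filter, 19 with a higher and 11 with a lower mean in KO, and a median of 0.18. At an unadjusted limma p under 0.05 there were 4 on each side, or 8 of 30, against 6.77% of all genes on the higher and 4.22% on the lower side. Cdh10 was well above background on 5 of 6 KO and 0 of 3 WT arrays. Its KO mean was 2.57-fold above a floor for its WT level, set as for Pcdhac1 and likewise no lower limit (means -4.83 in KO and -8.06 in WT, limma adjusted p = 0.0823). Cdh10 passed the filter through KO arrays alone and the WT values are at background, so its place among the 4 on the higher side supports nothing. With normexp its difference was 0.66 (limma adjusted p = 0.245). Cdh4, or R-cadherin, differed by -1.20 (limma adjusted p = 0.154), and Cdh5, the cadherin of endothelial cells, by 1.48 (limma adjusted p = 0.167).

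Markers of cell types other than satellite cells were measured beside these genes. Among endothelial markers, 11 of 11 that passed the filter had a higher KO mean (median 0.80). Tie1 was well above background on 4 of 6 KO and 1 of 3 WT arrays. Flt1 and Pecam1 were so on 6 of 6 and 2 of 3. All of these would fail the filter on WT arrays alone, so their places in that count and median support nothing. The summed linear signal, relative to the 75th percentile, was 5.62 to 8.54 in KO and 4.29 to 5.5 in WT samples. Sums here and below take every listed gene on the array, whether or not it passed the filter. Glial markers had a higher mean in 7 of 8 (median 0.96, sums 33.1 to 35.7 in KO and 22.5 to 28.8 in WT), mesenchymal markers in 9 of 11 (0.92, sums 116 to 127 in KO and 93.5 to 102 in WT) and mural markers in 8 of 8 (0.65, sums 61.4 to 65.1 in KO and 51.3 to 57.5 in WT). The mural marker Pdgfrb passed the test (difference 1.35, limma adjusted p = 0.0376), but not with slide as a block (0.102) or with any sample left out (0.0904 to 0.144). Pdgfra, 1 of the mesenchymal markers, was well above background on 6 of 6 KO and 0 of 3 WT arrays. It passed the filter through KO arrays alone, so its place in the mesenchymal count and median supports nothing. Fmod, Ly6a and Tnmd, well above background on 6 of 6 KO and 2 of 3 WT arrays, would also fail on WT arrays alone. Their places there likewise support nothing. The part of these cell types in the protocadherin differences was not tested. Immune markers had a higher mean in 1 of 7 (median -0.08, sums 120 to 133 in KO and 123 to 143 in WT, nearly all of it Itgam) and muscle fibre markers in 5 of 8 (0.31, sums 36.7 to 45.4 in KO and 34.7 to 45.5 in WT). Satellite cell markers had a higher mean in 9 of 14 (0.06, sums 148 to 150.0 in KO and 141 to 159 in WT). Pecam1, which encodes the CD31 used in the sort, was well above background on 6 of 6 KO and 2 of 3 WT arrays, and Ly6a, which encodes Sca1, likewise on 6 of 6 and 2 of 3. Itgam, which encodes CD11b, and Ptprc, which encodes CD45, were well above background on all 9 arrays. Itgam averaged 6.94 in KO samples and 7.02 in WT samples (difference -0.08), and Ptprc differed by -0.02. That Itgam level is from the brightest of its 3 probes, and every other immune marker was dimmer. Csf1r averaged 2.20 in KO and 2.27 in WT samples, Tyrobp averaged -4.78 and -3.51, and Lyz2 was above background on no array. Both groups thus gave signal at the probe used for each of the 4 genes whose proteins were used to remove cells. Of all these marker genes, 1 immune marker was above background on no array.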

How the data were processed

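Per the labels' protocols, RNA of sorted cells was amplified, labelled with Cy3 and hybridised. The authors deposited scanner output of 9 arrays, holding linear spot intensity values from Agilent Feature Extraction 10.7.3.1, background-subtracted per the file headers. Processed signals were converted to log2 here, each array's 75th percentile subtracted, outlier spots dropped, repeat spots averaged and 35 empty probe values filled in from the probe's average on the remaining arrays. The authors also deposited a log2 table per probe, by a method not given in the sources. It matched normexp (offset 50) plus quantile normalization (r = 0.999976, largest difference 0.0569; every column's median 7.806) and served as an alternative. Its values were not centred per gene, and direction is that of single-colour levels.

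The filter asked for signal well above background on 3 or more of the 9 arrays, which 42983 probes met and 12698 did not. With 6 KO arrays, a gene present only in KO passes more easily. Names were updated through RefSeq (GRCm38.p6) by accession (26241 probes), symbol (2042) or synonym (355); the other 27043 probes carry the file's name. KO and WT were compared with limma 3.58.1 (lmFit, eBayes; R 4.3.3, data.table, version 1.17.8, statmod 1.5.0), 3 samples against 3, with 4 residual and 2.04 prior degrees of freedom, and p adjusted by Benjamini-Hochberg over 28360 genes and features, 16773 with a symbol. Python 3.11.15, pandas 2.3.3 and matplotlib 3.10.9 did the rest. The code was tested on simulated data.

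Members, lists and tests were chosen with earlier results of these data known. The text names every non-clustered gene; in each cluster the 4 kept genes with the smallest p and those with the largest and smallest difference; up to 3 genes per list by p; and Bmi1 and Cdkn2a. Array design coordinates are mm9. The sources do not give the strand of the labelled cDNA. Deviations of same-numbered KO and WT samples correlated at -0.04, 0.02 and 0.01, so numbers were not taken as pairs. Alternatives changed the unit of replication, slide, background, normalization, filter, probe choice and samples.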

Additional observations from a re-analysis of the deposited data

How the results depend on the processing

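Members called stayed at 0 under every setting that gave a test, leave-one-out included (0 to 0), except with all 9 arrays separate, which called 2 (Pcdhac1 and Pcdh17) and 1202 of all genes, against 40. Over all genes the calls were 367 with sample as random block and slide fixed, 295 with normexp, 248 with the authors' table, 104 with probes above background on all 9 arrays, 13 without the filter, 4 with slide as a block, 2 within slide 1, the one with 2 WT arrays, and 0 to 9 with a sample left out. Quantile normalization gave 31, the mean over probes 42, and KO sample 1 from replicate 4 alone 36. With the replicate number as a block there were 0 calls over all genes and Pcdhac1 had a limma adjusted p of 0.277; no member's call changed, but Cdkn2a (0.173) and Pdgfrb (0.187) were lost. Cdkn2a was also lost with slide as a block (0.0695), within slide 1 (0.106) and with any sample left out (0.0622 to 0.0893).

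The Pcdha median of 1.07 was 0.31 with normexp, 0.33 in the authors' table, 0.11 without the filter and 0.02 with probes above background on all 9 arrays. The Pcdhb median of 0.31 was 0.15 within slide 2, and the Pcdhg median of -0.22 was -0.16 within slide 1. The non-clustered median of 0.12 was 0.20 within slide 1, -0.06 within slide 2, 0.03 with quantile normalization and 0.02 in the authors' table. Leaving out 1 sample at a time gave 0.61 (without WT sample 1) to 1.20 for Pcdha, 0.17 (without WT sample 3) to 0.39 for Pcdhb, -0.27 to -0.16 for Pcdhg and 0.03 to 0.21 for the non-clustered genes. It left 16 to 19 Pcdhb genes higher and 5 to 6 Pcdhg genes lower. The causes were not tested.

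Among the named genes the sign reversed within slide 1 for Pcdh18 (0.02), Pcdh20 (0.54) and Pcdhga9 (0.03), and within slide 2 for Pcdh12 (-0.42), Pcdha9 (-0.22), Psen2 (-0.10) and Aph1a (0.06). Pcdhga9 was 0.04 with quantile normalization and 0.01 in the authors' table, and the mean over probes gave Pcdh15 0.30 and Pcdha8 0.10. Leaving out a sample gave -0.30 to 0.05 for Pcdha8, -0.18 to 0.35 for Pcdha9, -0.11 to 0.02 for Pcdh15, -0.73 to 0.48 for Pcdh20, -1.55 to 0.08 for Pcdh9, -0.06 to 0.02 for Pcdhga9, -0.18 to 0.01 for Aph1a and -0.18 to 0.05 for Pcdh18. When a sample was left out, some differences over 0.25 in size moved by over 1.5 times without turning. Among protocadherin genes they were Pcdhac2 (1.12 without WT sample 1), Pcdh10 (1.02 without KO sample 2, 3.03 without KO sample 3), Pcdh12 (0.54 without WT sample 1, 1.58 without WT sample 2), Pcdh7 (0.14 without WT sample 1), Pcdhb1 and Pcdhb9 (-0.32 and 0.38 without KO sample 1) and Pcdhb2 (0.48 without KO sample 2). The others were Dnmt1 (-0.44 without KO sample 3) and Psen2 (0.20 without WT sample 1, 0.50 without WT sample 2). Normexp brought Pcdhac1 to 0.57, Pcdhac2 to 0.58, Pcdh10 to 0.66, Pcdh12 to 0.20, Pcdh17 to -0.73 and Pcdh9 to -0.16. It also brought Pcdhb1 to -0.19, Pcdhb18 to 0.25, Cdh10 to 0.66 and Cdh5 to 0.98. With the mean over probes Pcdh10 was 0.32 and Pcdh7 0.22. Pdgfrb also lost its call within slide 1 (0.126) and without the filter (0.057). The remaining changes of side were 9 calls gained (Pcdh17, Pcdhac1, Wasf3, Nhs, Cdh4 and Cdh5 with arrays separate, and Cdh10 in 3 settings). KO sample 1 from replicate 4 alone, the counts by direction and the settings of Pdgfrb were added after seeing the data. Genes near background have uncertain folds.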

Other observations

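Other probes lie between the first and last probes of the protocadherin clusters, 8 in all, of which 7 passed the filter. Slc25a2, a mitochondrial carrier gene, was at -8.29, -7.69 and -5.52 in KO samples and at -5.33, -4.82 and -4.96 in WT samples. All its KO samples were below the WT samples, and its probe was well above background on 2 of 6 KO and 3 of 3 WT arrays. The difference was -2.13, or -0.52 with normexp. Taf7, which encodes a subunit of the general transcription factor TFIID, had probes with differences of 0.37 and 0.04.

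An unnamed probe in this region was at -6.25, -3.52 and -5.00 in KO samples and at -8.08, -5.97 and -8.23 in WT samples. It was well above background on 4 of 6 KO and 1 of 3 WT arrays, and the groups overlapped through KO sample 1 and WT sample 2. A probe of the transcript ENSMUST00000097612 was at -4.51, -5.02 and -4.54 in KO samples and at -3.91, -4.35 and -4.46 in WT samples, with all KO samples below the WT samples (difference -0.45). The other probes that passed had differences of 0.02 and 0.19. The probes were taken for their position, those given per sample were picked after their values were seen, and no test is given.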
